A study of Mus musculus with 6 samples.

Results

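Clone 7 was set against clone 5, 2 mouse induced pluripotent stem (iPS) cell lines that both lack Nac1, the gene now named Nacc1, which encodes a nuclear transcriptional regulator. All 6 arrays of the series entered the comparison. The group of clone 7 held 3 arrays, from days 0, 2 and 5 of a rescue with human NAC1 (hNAC1), and the group of clone 5 held 3 arrays from the same days. The loss of Nac1 and the hNAC1 rescue are therefore shared by both groups, and each group is 1 clone, with 1 array per clone and day. Total RNA was hybridised in 1 colour to Illumina bead arrays with 45281 probes, all on 1 chip. The arrays were paired by day, so that a clone difference (clone 7 minus clone 5 on the log2 scale) was obtained on each of 3 days and averaged. Of 11077 genes tested, 9154 were autosomal, and these are described.

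Lines derived from separate reprogrammed cells can carry lasting differences although their targeted genotype is the same. One well-studied class lies at imprinted loci, where only the copy from 1 parent is transcribed. The Dlk1-Meg3 locus is the best known of these in mouse iPS cells, where the maternally expressed noncoding RNA Meg3, also called Gtl2, is transcribed in some clones and repressed in others. Changes in the number of copies of a chromosome are another known class, and they shift the expression of many of its genes together. DNA was not measured here.

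The clones could be told apart by 1 autosomal gene at an adjusted p under 0.05 (limma with Benjamini-Hochberg adjustment over all 11077 genes), which was Meg3, 3.92-fold lower in clone 7. That is 0.0109% of the autosomal genes tested. Genes of chromosome 1 were lower as a body in clone 7, with a median difference of -0.37, while the medians of the other 18 autosomes lay between -0.02 and 0.04. Fixed pluripotency factors had differences between -0.42 and 0.26, none of which passed. Glycolysis, cholesterol synthesis and meiosis genes lay mostly below 0, against 48.8% of autosomal genes, and none of their members passed. On day 5 the medians of the glycolysis and cholesterol lists were -0.05 and -0.03.

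Both lines carried the markers of pluripotent cells. All 12 pluripotency markers were detected on all 6 arrays, at a summed level of 35283 to 38817 in clone 7 and 36534 to 41905 in clone 5 (linear normalised intensity). Of 10 fibroblast markers, which feeder cells would bring, 5 (Col1a1, Col1a2, Col3a1, Lum and Postn) were detected on no array, 2 (Thy1 and Twist1) on all 6 and the other 3 on 1 array each. The 10 had a summed level of 230 to 449 in clone 7 and 310 to 639 in clone 5. Thy1 ranged from 5.09 to 8.77 on the log2 scale, and no other of the 10 exceeded 5.89 on any array. The spread of these sums is therefore mostly that of Thy1. Of 10 markers of endothelium, macrophages and blood, 6 were detected on no array, and the sums overlapped, at 493 to 687 in clone 7 and 503 to 697 in clone 5. Between 16739 and 18150 probes were detected per array, and the median raw signal was 93.4 to 95.9. In bulk RNA, fewer expressing cells and less RNA per cell cannot be told apart.

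The sequence just upstream of Meg3 is shown because this was the autosomal gene that passed the test and because its transcription in iPS clones is known to follow the methylation of CG sites at the locus. The 250 bases before the annotated start (RefSeq, GRCm38.p6, chr12:109540746-109540995, plus strand) read 5′ to 3′ as follows, with each CG in capitals.
Meg3 upstream region: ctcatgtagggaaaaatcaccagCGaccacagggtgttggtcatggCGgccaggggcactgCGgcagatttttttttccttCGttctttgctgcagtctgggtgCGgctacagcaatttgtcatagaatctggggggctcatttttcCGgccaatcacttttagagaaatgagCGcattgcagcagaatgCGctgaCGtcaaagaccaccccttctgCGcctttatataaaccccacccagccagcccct
The window holds 10 CG sites, and 37.8% of 32851 promoter windows of the same length hold as many or more. It also holds the palindrome TGACGTCA, known as the full cAMP response element, 1 time, starting at position 194 counted from the 5′ end of the window. That motif occurs in 1.55% of the same windows, counted on both strands, which read the same. The table lists 2 starts for Meg3, of which this is 1. The arrays measured neither methylation nor binding, so these letters describe the window only.

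Meg3 had log2 intensities of 5.63, 5.13 and 5.68 on days 0, 2 and 5 in clone 7, against 7.70, 7.38 and 7.27 in clone 5. The highest array of clone 7 lay more than 1 log2 unit below the lowest of clone 5, so the groups did not overlap, and the order held on each day. The difference was -1.97 ± 0.17 (SE moderated by limma over genes, n = 3 days), with an adjusted p of 0.0435 in limma. Meg3 was detected on all 6 arrays by 1 probe, and its other 4 probes were detected on 0 or 1 array and gave no further reading. The call depended on the days used and on the processing. Meg3 passed in 6 of 14 alternatives besides leaving out arrays, and it was lost without the block for day (adjusted p = 0.0738), with no background correction (0.166), an offset of 50 (0.0878), the authors' series values (0.288), no detection filter (0.28), detection on both arrays of a day (0.0675) or on all 6 arrays (0.0558), and the mean of probes (0.0543). Without the day 2 arrays the difference was -1.83 with an adjusted p of 0.20 and 0 genes passed, without the day 0 arrays 10 autosomal genes passed, and without the day 5 arrays 53 did, Meg3 among them both times.

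Dlk1, the paternally expressed neighbour that encodes a membrane ligand related to Notch ligands, read 5.82, 5.07 and 8.57 in clone 7 and 7.53, 7.04 and 8.75 in clone 5. It was far below clone 5 on days 0 and 2 and nearly level with it on day 5, and the groups overlapped. Its difference was -1.29 ± 0.33 (adjusted p = 0.209 in limma), and a weaker second probe gave -0.62. Dio3, a thyroid hormone deiodinase gene at the far end of the locus, had a difference of -0.15 and was detected on 2 arrays of clone 7. These were the 3 measured genes of the 7 listed for the locus, and all 3 lay below 0, against 48.8% of autosomal genes.

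**Figure D1:**
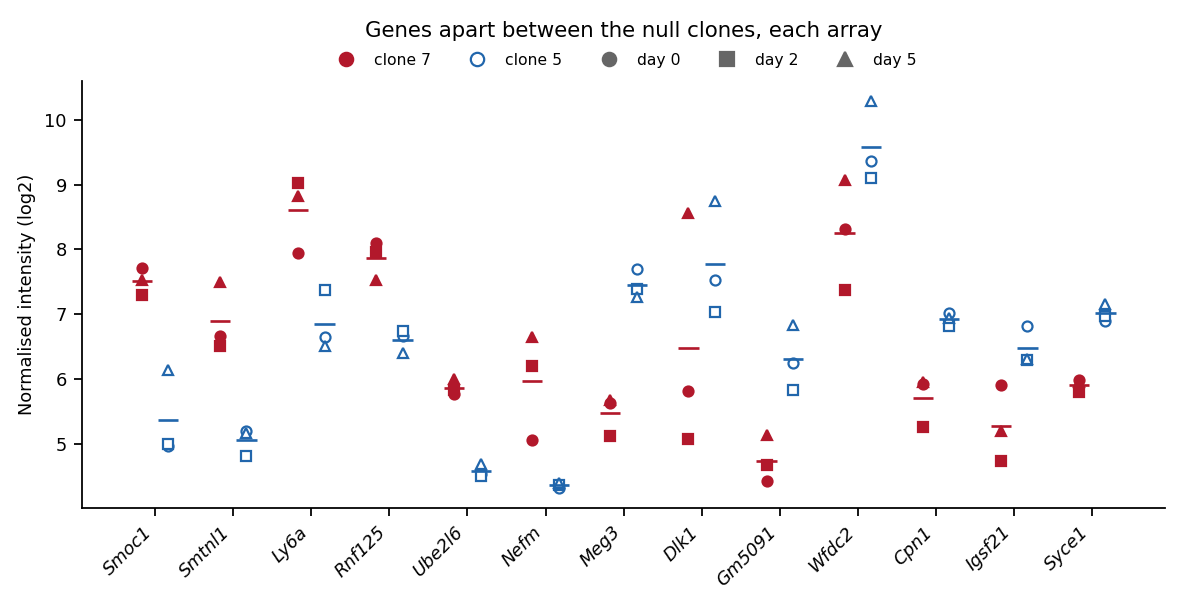
Normalised log2 intensity (vertical axis) of 13 named genes on each array, with clone 7 in filled and clone 5 in open symbols the symbol shape giving the day and a bar at the mean of the 3 arrays. Every array of clone 7 lies above every array of clone 5 for Smoc1 to Nefm, and Meg3 shows the reverse, while the arrays of Dlk1 overlap.

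A further 15 autosomal genes had an adjusted p between 0.05 and 0.1 in limma, which brought the count under 0.1 to 16, or 0.175% of 9154, with 6 higher and 10 lower. None of the 15 passed at 0.05. Without adjustment, 1162 autosomal genes (12.7%) had p under 0.05, with 487 higher and 675 lower, and with median scaling in place of quantile normalisation the split was 269 higher and 880 lower. The arrays of the clones did not overlap for 1020 autosomal genes (11.1%), 470 with clone 7 higher and 550 with clone 7 lower. A gap of at least 2-fold the same way on all 3 days was seen for 9 genes (0.0983%), 6 higher and 3 lower. Without the day 0 arrays these counts were 18 higher and 13 lower, and without the day 5 arrays 11 higher and 36 lower. These required the gap on the remaining days only, a looser rule that by itself raises the counts. Of the genes named here, Ly6a and Smtnl1 joined Meg3 in passing at 0.05 without the day 0 arrays. Nefm did as well, but it was detected in clone 7 alone and had to differ. Without the day 5 arrays, Ly6a, Rnf125, Smoc1, Smtnl1 and Ube2l6 passed as higher, and Ccnd1, Cpn1, Dhcr7, Dlk1, Gbx2, Gm5091, Igfbp2, Lhpp, Phgdh, Phlda2, Slc22a18, Stat4, Thy1, Wfdc2 and Zap70 passed as lower beside Meg3.

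Among genes with higher signal in clone 7, Smoc1, which encodes a secreted calcium-binding matricellular protein, read 7.72, 7.31 and 7.53 in clone 7 on days 0, 2 and 5, against 4.96, 5.00 and 6.14 in clone 5. It was steady in clone 7 and closest between the lines on day 5. Its difference was 2.15 ± 0.25 (SE), or 4.44-fold, with an adjusted p of 0.0662 in limma. Smtnl1, a smoothelin-like gene of muscle, read 6.66, 6.51 and 7.50 in clone 7 and 5.19, 4.82 and 5.17 in clone 5. The gap of Smtnl1 was widest on day 5, and its mean was 1.83 ± 0.19, or 3.55-fold (adjusted p = 0.0662 in limma).

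Ly6a, the gene of the surface antigen Sca-1, read 7.95, 9.03 and 8.83 in clone 7, against 6.65, 7.37 and 6.51 in clone 5. The lines did not overlap, and the difference was 1.76 ± 0.21 (SE). Of 9154 autosomal genes, 64 (0.699%) were detected on all 3 arrays of 1 clone and none of the other, 18 in clone 7 and 46 in clone 5. Each met the detection filter only through the clone where it was high, so it had to differ. Such genes are given as bounds. Nefm, the neurofilament medium chain gene, was detected in clone 7 alone, at 5.06, 6.21 and 6.64. It was at least 2.52-fold higher there, a bound set by the lowest detected signal of each clone 5 array. Spink10, named for its similarity to serine protease inhibitors, was detected in clone 7 alone as well, at 5.10, 5.08 and 7.13, at least 2.19-fold higher.

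Rnf125, which encodes a ubiquitin ligase acting on the RNA sensor RIG-I, read 8.10, 7.97 and 7.53 in clone 7 and 6.67, 6.74 and 6.40 in clone 5. Its difference was 1.26 ± 0.14 (SE), and a second detected probe gave 1.18. Ube2l6, which encodes the conjugating enzyme for the ubiquitin-like protein ISG15, read 5.77, 5.83 and 6.01 in clone 7 and 4.54, 4.51 and 4.68 in clone 5. Its signal was detected on 1 of 3 arrays of clone 5, so the 2.45-fold gap is uncertain at its lower end, and its second probe gave the same 1.29.

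Others higher on all 3 days had adjusted p-values of 0.125 to 0.128. Ly6g6c, a gene of the Ly6 family, had a difference of 1.22. Tulp4, a tubby-like gene, had 0.96 and Smpdl3b, which encodes a lipid-modulating phosphodiesterase, had 0.91. Tead4, a transcription factor of the Hippo pathway known for its role in trophectoderm, had 0.87 on its strongest probe and 0.23 on another that was detected on all arrays. Ttl, the tubulin tyrosine ligase gene, had 0.77.

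Among genes with lower signal in clone 7, Gm5091, a long noncoding RNA gene, read 4.43, 4.67 and 5.13 in clone 7 on days 0, 2 and 5, against 6.25, 5.84 and 6.84 in clone 5. The lines did not overlap, and the difference was -1.57 ± 0.17 (SE), with an adjusted p of 0.0662 in limma and detection on 2 of 3 arrays of clone 7. Wfdc2, which encodes a secreted whey acidic protein domain protein of epithelia, read 8.32, 7.37 and 9.07 in clone 7 and 9.36, 9.11 and 10.30 in clone 5. Wfdc2 varied over days in both lines and was lower in clone 7 on each, with differences of -1.04, -1.73 and -1.23 and a mean of -1.33 ± 0.17 (adjusted p = 0.0878).

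The remaining ones had smaller gaps and adjusted p-values of 0.0878 to 0.0997. Cpn1, a subunit of the plasma enzyme carboxypeptidase N, had a difference of -1.22, although a second detected probe gave -0.54. Igsf21, which encodes an immunoglobulin superfamily adhesion protein of inhibitory synapses, had -1.19. Lhpp, a phosphohistidine phosphatase gene, had -1.13, and Trf, the gene of the iron carrier transferrin, had -0.97. Syce1, a synaptonemal complex gene of meiosis, is described with its group below. Beside the autosomal genes, the transcript 9430047F21Rik, which has no chromosome in the gene table and is named here after its values were seen, was the only other gene under an adjusted p of 0.05. It read 4.65, 4.36 and 4.38 in clone 7, detected on none of these arrays, against 6.69, 6.31 and 6.84 in clone 5, at least 3.83-fold lower. This transcript met the detection filter through clone 5 alone, so it had to differ, and its adjusted p of 0.0289 in limma is no support. Counting this transcript, 2 of 11077 genes were under 0.05 (0.0181%).

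Chromosome 1 differed from every other autosome in its median. Its 498 tested genes had a median difference of -0.37, which is 1.29-fold lower in clone 7, with a middle range (25th to 75th percentile) of -0.53 to -0.20. The median was -0.32 on day 0, -0.38 on day 2 and -0.39 on day 5, or -0.37 ± 0.04 (SD, n = 3 days). Of the 498 genes, 450 (90.4%) lay below 0, against 46.4% of the 8656 genes outside chromosome 1. The day medians of the other 18 autosomes stayed between -0.04 and 0.07. The low median of chromosome 1 had been seen in earlier work on these arrays, so it is a description and carries no test.

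**Figure D2:**
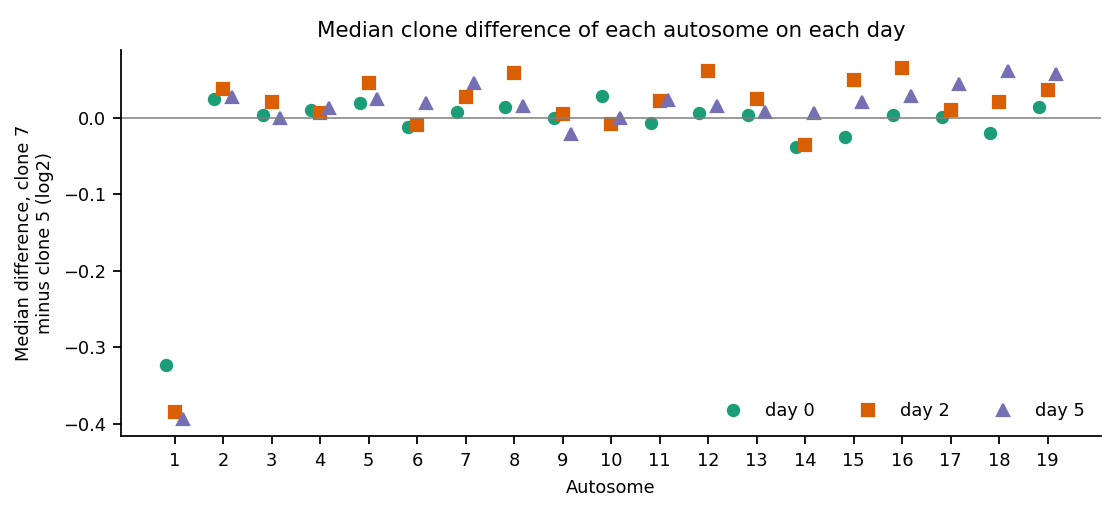
Median clone difference (clone 7 minus clone 5, log2, vertical axis) of the tested genes of each autosome on days 0, 2 and 5. The 3 points of chromosome 1 sit between -0.39 and -0.32, and the points of the other autosomes lie between -0.04 and 0.07.

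Counts by gene gave the same picture. On chromosome 1, 336 genes (67.5%) were lower in clone 7 on all 3 days and 13 (2.61%) were higher, against 17.2% lower and 17.3% higher over all autosomal genes. The median of all autosomal genes was -0.06 with median scaling and 0.01 with quantile normalisation, and with median scaling 2151 autosomal genes were lower on all days and 994 higher. At an unadjusted p under 0.05, 248 genes of chromosome 1 were lower and 5 higher. Chromosome 1 holds 5.44% of the autosomal genes tested, and it held 36.7% of those lower and 1.03% of those higher by that measure. It also held 13 of the 46 genes detected in clone 5 alone (28.3%). Such genes had to be lower in clone 7 by the detection filter, so their number is no separate support.

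The shift ran along the whole chromosome. In 10 bins of 49 or 50 neighbouring genes, the medians lay between -0.43 and -0.31, and 84% to 98% of the genes of each bin lay below 0. In sliding windows of 15 neighbouring genes, the 484 windows of chromosome 1 had medians of -0.58 to -0.20, and the 8404 windows of the other autosomes ranged from -0.33 to 0.40. Of the chromosome 1 windows, 77.5% were lower than any window elsewhere. Split by mean signal over all 6 arrays, the weakest of 3 classes, with 161 genes, had a median of -0.23. The middle class, also with 161 genes, had -0.40 and the strongest, with 176, had -0.43, which is 1.34-fold lower in clone 7 with 97.7% of the genes below 0. Background signal is known to compress the differences of weak probes, and its part in this order was not tested.

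**Figure D3:**
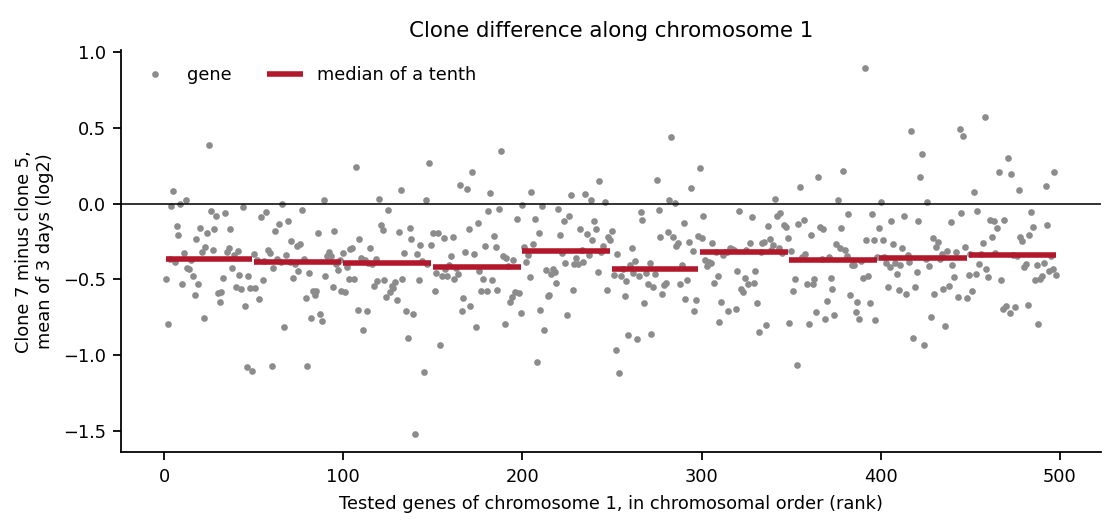
Mean clone difference over 3 days (log2, vertical axis) of each tested gene of chromosome 1 in chromosomal order (rank, horizontal axis), with bars at the median of each of 10 bins. The bars stay between -0.43 and -0.31 from one end to the other.

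No single gene of chromosome 1 passed at 0.05, and some had nearly the same difference on each day. Mcm6, a subunit of the replicative helicase, read 10.46, 10.34 and 10.37 in clone 7 and 11.19, 11.36 and 11.19 in clone 5. The lines did not overlap and varied little over days, and the difference was -0.86 ± 0.14 (SE, adjusted p = 0.128 in limma), with other probes detected on all arrays at -0.51 and -0.74. Mcm3, another helicase subunit, had -0.60.

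Igfbp2, which encodes a secreted binding protein for insulin-like growth factors, had the largest mean gap of those named on this chromosome. It read 8.51, 8.09 and 10.45 in clone 7, against 10.02, 10.26 and 11.33 in clone 5, so the ranges overlapped while each day showed clone 7 lower. Its difference was -1.52 ± 0.24 (adjusted p = 0.128 in limma), and its other probe gave -1.51. Zap70, a tyrosine kinase gene of T cell signalling that is also expressed in mouse embryonic stem cells, had -1.10. Stat4, a signal transducer of cytokine receptors, had -1.07 with an adjusted p of 0.0997, and its second probe, detected on 4 of 6 arrays, had -0.52. Chst10, a sulfotransferase gene, was detected on no array of clone 7 and was at least 1.77-fold lower there. It met the detection filter through clone 5 alone and had to differ. Fam178b had -1.08 and was detected on 1 array of clone 7 and all 3 of clone 5. Fn1, the fibronectin gene, read 9.08, 7.76 and 8.26 in clone 7 and 9.69, 9.03 and 9.04 in clone 5. Its difference was -0.89 ± 0.17, and the signal was lower in clone 7 on each day.

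The differences of single genes were not equally stable over days. Across the 9154 autosomal genes, the clone differences of days 0 and 2 correlated at r = 0.38 (Pearson) and rho = 0.32 (Spearman), and those of days 2 and 5 at r = 0.39 and rho = 0.35. For days 0 and 5 the values were r = -0.02 and rho = -0.05, and outside chromosome 1 the r of days 0 and 5 was -0.08. These are correlations over genes measured on the same arrays, given as a description. A gap of at least 2-fold was seen on day 0 for 218 genes (2.38%), on day 2 for 193 (2.11%) and on day 5 for 137 (1.5%). In all 460 genes were apart by that much on at least 1 day, and 1.96% of them were so on all 3 days in the same direction. A test of clone by day was not possible with 1 array per clone and day.

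**Figure D4:**
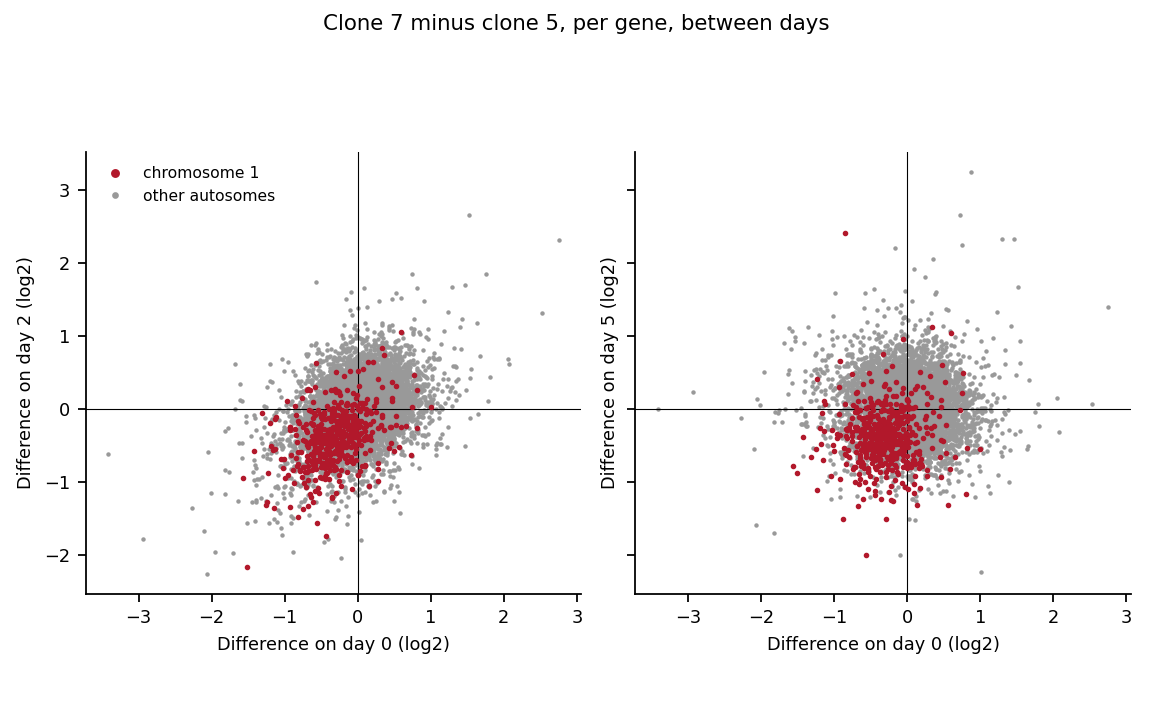
Clone difference (log2) of each autosomal gene on day 0 (horizontal axis) against day 2 (left panel) and day 5 (right panel), with genes of chromosome 1 in red. The left cloud slopes upward (r of 0.38) and the right one does not (r of -0.02), and the red points lie mostly below 0 in both.

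Several genes that were far apart on day 0 met by day 5. Cdkn1c, an imprinted cell cycle inhibitor gene, read 6.57, 7.05 and 8.04 in clone 7 on days 0, 2 and 5, against 9.99, 7.67 and 8.05 in clone 5. The gap was more than 3 log2 units on day 0, and the lines were level on day 5. Its mean difference of -1.34 had an adjusted p of 0.409 in limma. Phlda2, its imprinted neighbour and a regulator of placental growth, read 8.21, 8.03 and 9.99 in clone 7 and 10.48, 9.39 and 10.12 in clone 5. Phlda2 also met on day 5, with a mean difference of -1.26 (adjusted p = 0.239). Slc22a18, a transporter gene of the same cluster, read 6.35, 5.50 and 6.42 in clone 7 and 7.77, 6.48 and 7.07 in clone 5, lower on each day, at -1.02 ± 0.18 (SE, adjusted p = 0.13). Kcnq1ot1, the paternally expressed noncoding RNA that silences these 3 genes in cis, read 6.64, 6.62 and 5.18 in clone 7 and 5.22, 5.80 and 5.74 in clone 5. It was higher in clone 7 on days 0 and 2 and lower on day 5, with a mean of 0.56 (adjusted p = 0.561). Over the 24 measured imprinted genes outside the Dlk1-Meg3 locus, 15 lay below 0, against 48.8% of autosomal genes. Of these 24, 0 passed, and the median was -0.07.

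None of the fixed pluripotency factors passed the test. Pou5f1, the gene of Oct4, read 12.06, 11.58 and 11.49 in clone 7 and 12.08, 11.98 and 11.32 in clone 5, with a difference of -0.08. Nanog read 11.21, 11.35 and 11.45 in clone 7 and 11.30, 11.89 and 12.10 in clone 5, lower in clone 7 on each day, with a mean difference of -0.42. Sox2 had -0.25, Klf4 -0.32, Esrrb -0.08, Zfp42 -0.09 and the germ cell and naive pluripotency marker Dppa3 0.26. Zeb1, a repressor of epithelial genes, had -0.15, the E-cadherin gene Cdh1 0.11 and the vimentin gene Vim -0.30. The adjusted p-values of these 10 genes ran from 0.358 to 0.89. Nacc1, the targeted gene, had 0.16 (adjusted p = 0.698), at 7.34, 7.29 and 7.07 in clone 7 and 7.09, 7.25 and 6.87 in clone 5. The labels and files do not place its probe relative to the disrupted part, so it does not check the genotype.

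Of 31 measured genes of naive pluripotency, 18 lay below 0, against 48.8% of autosomal genes, and the median was -0.08. Dppa2, a chromatin factor gene of early embryos, was higher in clone 7 on all days, at 7.53, 7.81 and 7.28 against 6.83, 7.05 and 6.53 in clone 5, with a difference of 0.73 ± 0.13 (SE, adjusted p = 0.13 in limma). Fbxo15, a target gene of Oct4, read 10.89, 10.55 and 10.93 in clone 7 and 8.81, 9.94 and 11.25 in clone 5. It was apart on day 0 and close on day 5. The lowest members, Gbx2 at -0.70 and the nuclear receptor gene Nr5a2 at -0.58, both lie on chromosome 1.

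Genes of glycolysis and of the hypoxia response had a median of -0.32, and 0 passed. They lay below 0 in 25 of 26 measured members, against 48.8% of autosomal genes. Of them, 11 were lower on all 3 days and 0 were higher, against 17.2% and 17.3% over autosomal genes. The day medians were -0.59, -0.29 and -0.05 on days 0, 2 and 5, and without the day 0 arrays the median was -0.21. Earlier work on these arrays had found this list lower. None of its measured members lies on chromosome 1. Aldoc, an aldolase gene, read 7.15, 7.83 and 9.21 in clone 7 and 9.20, 8.41 and 9.08 in clone 5, and the gap closed by day 5. Pfkp, a phosphofructokinase gene at the committed step of glycolysis, had -0.76, and a second detected probe had -0.66. P4ha1, which encodes a hypoxia-inducible collagen prolyl hydroxylase subunit, had -0.67 and kept its gap on day 5, but another detected probe had 0.07. Hk1, a hexokinase gene, had -0.58 and was detected on 2 arrays of clone 7 and all 3 of clone 5.

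Cholesterol and fatty acid synthesis genes had a like course. Of 19 measured members, 17 lay below 0, against 48.8% of autosomal genes, 9 were lower on all days (17.2% over autosomal genes) and 1 was higher (17.3%), and 0 passed. The median was -0.34, with day medians of -0.82, -0.25 and -0.03, and without the day 0 arrays it was -0.17. Dhcr7, the enzyme of the last step of cholesterol synthesis, read 5.36, 5.55 and 6.97 in clone 7, against 6.75, 6.59 and 7.08 in clone 5. Clone 7 was low on days 0 and 2 and level on day 5. Scd2, a stearoyl-CoA desaturase gene, had -1.81, -0.31 and -0.04 on the 3 days. Hsd17b7, a sterol reductase gene on chromosome 1, had -0.76 and kept its gap on each day. Mvk, the mevalonate kinase gene, went the other way at 0.79.

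Germline and meiosis genes lay below 0 in 8 of 9 measured members, against 48.8% of autosomal genes. The median was -0.42, with day medians of -0.46, -0.55 and -0.52. The gap of this group did not close by day 5, and 7 members were lower and 0 higher on all 3 days (17.2% and 17.3% of autosomal genes), although 0 passed. Syce1 read 5.99, 5.80 and 5.95 in clone 7 and 6.90, 6.97 and 7.16 in clone 5. Its arrays were tight within each line and did not overlap, and the difference was -1.10 ± 0.14 (SE, adjusted p = 0.0878 in limma). Smc1b, the meiotic cohesin subunit gene, had -0.69 and was detected on 1 array of clone 7 and all 3 of clone 5. Tdrkh, a Tudor domain gene of the piRNA pathway, had -0.60. Tuba3a, an alpha-tubulin gene of testis with near-identical relatives, had -0.45, and its other detected probes had -0.09 to -0.25. Most of the list, 16 of 25 autosomal genes, did not pass the detection filter.

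**Figure D5:**
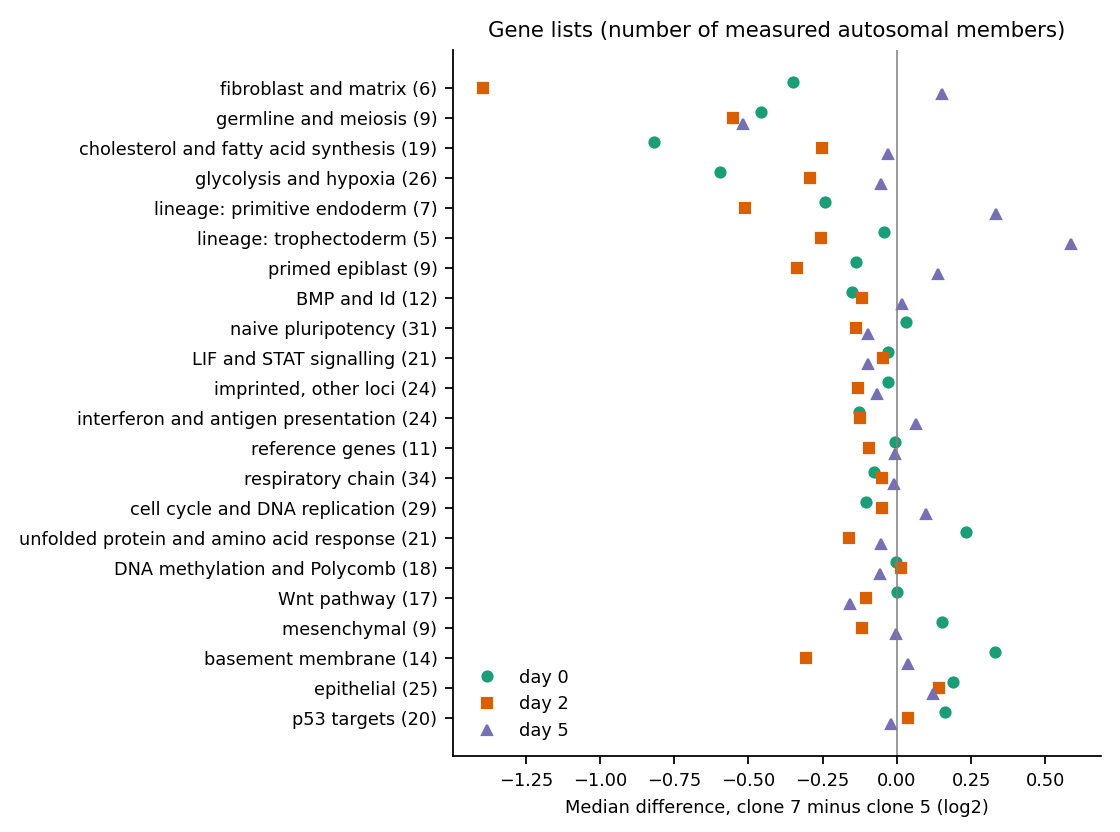
Median clone difference (clone 7 minus clone 5, log2, horizontal axis) on days 0, 2 and 5 for each gene list, with the number of measured members in brackets. The glycolysis and cholesterol lists lie at -0.05 and -0.03 on day 5, and the germline list lies between -0.55 and -0.46 on all 3 days.

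Epithelial genes had 15 of 25 measured members above 0, close to the 51.2% of autosomal genes, a median of 0.09 (0.02 with median scaling), 7 higher and 2 lower on all days (17.3% and 17.2% of autosomal genes), and 0 passing. Grhl2, a master regulator of epithelial identity, read 7.18, 8.13 and 7.87 in clone 7 and 6.89, 6.65 and 6.78 in clone 5, above every array of clone 5, at 0.96 ± 0.23 (SE, adjusted p = 0.206 in limma). Cldn4, a tight junction gene, had 0.71 and Esrp2, an epithelial splicing factor gene, had 0.48. Fibroblast and matrix genes were measured for 6 members, all below 0, against 48.8% of autosomal genes. Their median was -0.63, with day medians of -0.35, -1.40 and 0.15. Without the day 2 arrays that median was -0.33. Thy1, a surface glycoprotein gene, read 5.83, 5.09 and 7.61 in clone 7 and 8.77, 6.87 and 7.38 in clone 5, far lower on days 0 and 2 and level on day 5. Serpinh1, the collagen chaperone gene, had -0.77, Fstl1, a secreted glycoprotein gene, -0.74 and Sparc, a matricellular protein gene, -0.53. Thy1 is also 1 of the 10 fibroblast markers. Twist1, the other marker detected on all arrays, had 0.33, and 5 of the 10 were detected on no array of either line. Their part in the values of these genes was not tested.

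No member passed in the other lists. Primed epiblast genes had a median of -0.15 over 9 members, with 8 below 0, against 48.8% of autosomal genes. Primitive endoderm genes had -0.19 over 7, with 6 below 0 against the same 48.8%. Sox7, 1 of these 6, was detected in clone 5 alone and had to differ. Of the autosomal genes listed, 6 of 15 primed epiblast and 12 of 19 primitive endoderm genes were not measured. Trophectoderm genes had -0.15 over 5 and BMP and Id genes -0.13 over 12. Cell cycle and replication genes had a median of -0.03 over 29 members, and their lowest were Ccnd1, the cyclin D1 gene, at -0.91 and the chromosome 1 genes Mcm6 and Mcm3. Respiratory chain genes had -0.04 over 34, with 8 lower and 2 higher on all days, against 17.2% and 17.3% of autosomal genes. Wnt pathway genes had -0.02 over 17, with the receptor gene Fzd7, on chromosome 1 too, at -0.71. Interferon and antigen presentation genes had -0.06 over 24, spread from Ly6a at 1.76 to Psmb9, an immunoproteasome subunit gene, at -0.83. Targets of p53 had 0.10 over 20, with 6 higher and 0 lower on all days against the same 17.3% and 17.2%, and Cdkn1a, the gene of the inhibitor p21, at 0.53. The unfolded protein and amino acid list had -0.03 over 21, and Phgdh, the first enzyme of serine synthesis, had -0.82. A list of 11 reference genes had a median of -0.05.

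A few genes were farthest apart on 1 day. Spink1, a secreted trypsin inhibitor gene, read 5.60, 6.34 and 8.94 in clone 7 and 4.72, 6.71 and 5.70 in clone 5, so that day 5 of clone 7 stood above all other arrays. Lefty2, an inhibitor of Nodal signalling on chromosome 1, read 7.49, 7.05 and 9.24 in clone 7 and 8.33, 7.13 and 6.83 in clone 5, and day 5 of clone 7 was again the highest array. Their mean differences, 1.25 and 0.49, had adjusted p-values of 0.443 and 0.783 in limma. With 1 array per clone and day, no replicate shows whether such a gap belongs to the line or to that culture.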

How the data were processed

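The deposited probe table gives, per the file headers, the average bead signal as an intensity and a detection p-value for each probe and array, and its values were neither background-corrected nor normalised. The authors' series values on a log2 scale, background-subtracted and normalised by a method not given in the sources used here, were an alternative. In R 4.3.3 with limma 3.58.1, signals were corrected by normexp with background estimated from the detection p-values (offset 16), quantile-normalised and log2-transformed. Probes with a detection p under 0.05 on all 3 arrays of at least 1 clone were kept (15976 of 45281). This filter, unlike one on both arrays of a day, keeps genes detected in 1 clone alone. Such genes had to differ, so they are given as bounds and their p-values carry no weight. The probe with the highest mean stood for a gene. Current symbols and chromosomes came from a RefSeq table (GRCm38.p6), which matched 35777 probes. The file's build is not stated, so its coordinates were not used.

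A model of day and clone was fitted (lmFit and eBayes, 2 residual and 5 prior degrees of freedom, Benjamini-Hochberg over 11077 genes). Error is the spread of the clone difference over days, and with 3 arrays against 3 an exact permutation test could not go below p = 0.1 (0.25 paired by day), so limma was used. Deviations of same-day arrays from their clone means correlated at 0.38, 0.54 and 0.50, and the pairing by day comes from the labels. P-values therefore measure how far the clone difference varied over days, without repeated cultures, and array number limits precision. Each SE of a single gene comes from the same fit and is moderated by limma over genes. Named genes were those passing, the 12 each way with the largest least daily difference, the 10 lowest adjusted p-values, up to 4 per list, up to 4 set apart per day, up to 6 of chromosome 1 and fixed regulators, and a few genes that the rule names are not reported here. Members, lists and rules were chosen with earlier results of these data known. Alternatives covered the block, background, offset, scaling, filter, probes, variance model and leaving out each array, which with the pairing amounted to leaving out its day.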

Additional observations from a re-analysis of the deposited data

Results flagged for a closer look

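Among the named genes, 2 had a clone difference of at least 2-fold in one direction on 1 day and at least 2-fold in the other on another, so the lines changed order between days. For 4931428F04Rik the difference of clone 7 from clone 5 was -1.62 on day 0, 0.12 on day 2 and 1.104 on day 5, a span of 2.72 log2 units. Svop, which encodes a synaptic vesicle protein, had 1.01, -0.17 and -2.23 on the same days, a span of 3.24. With 1 array per clone and day, the difference between days was not tested for either gene. Over all autosomal genes, 9 showed such a change of order.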

How the results depend on the processing

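Under no replicate block, 0 autosomal genes passed and Meg3 had an adjusted p of 0.0738 at -1.97. The count was 7 with day as a random block, 10 with a trended and robust variance and 16 at a threshold of 0.1. It was 0 with no background correction (Meg3 -1.06, adjusted p = 0.166), with an offset of 50 (-1.41, 0.0878), with no detection filter (-1.97, 0.28), with detection on both arrays of a day (0.0675), with detection on all 6 arrays (0.0558) and with the mean of probes (0.0543). It stayed at 1 with median scaling and with the authors' series values, where Meg3 had -2.50 (adjusted p = 0.288) and another gene passed. Genes at least 2-fold higher on all days, 6 in the report, numbered 0 with no background correction, 2 with an offset of 50, 2 with detection on all 6 arrays and 20 with the series values. The 3 lower ones became 0, 1 and 27 with no background correction, the offset and the series values, and 6 with median scaling. The chromosome 1 median was -0.24 with no background correction, -0.29 with the offset of 50, -0.43 with median scaling, -0.45 with the series values and -0.066 with no detection filter, which adds probes at background. With the pairing by day, leaving out either array of a day gave the same values, so each such run stood for 1 day. Leaving out each array in turn gave 0 to 53 passing genes, a Meg3 difference of -2.16 to -1.83 and a chromosome 1 median of -0.41 to -0.35. It gave 6 to 18 genes higher and 4 to 36 lower by 2-fold, counted on the remaining days only, which is a looser rule. Of 77 named genes, 10 changed direction in an alternative. With no background correction 4931428F04Rik had 0.0213, and with the mean of probes Esrrb had 0.0238. Leaving out arrays in turn, the differences ran from -0.75 to 0.61 for 4931428F04Rik, -0.0076 to 0.26 for Cdh1, -0.18 to 0.0222 for Esrrb, -0.60 to 0.0456 for Klf4, -0.46 to 1.16 for Lefty2, -0.21 to 0.0711 for Pou5f1, -1.20 to 0.42 for Svop, -0.52 to 0.0772 for Vim, -0.47 to 0.0939 for Zeb1 and -0.19 to 0.0182 for Zfp42. The causes of these shifts were not tested.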

Other observations

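Outside chromosome 1, the sliding windows of 15 neighbouring genes with the highest medians lay on chromosome 13, in the clusters of replication-dependent histone genes, a group singled out after its values were seen. All 36 measured histone genes of chromosome 13 were above 0 in clone 7 relative to clone 5, from 0.04 to 0.72, with a median of 0.38. The day medians were 0.12, 0.69 and 0.32 on days 0, 2 and 5, and 23 of the 36 were higher on all 3 days, against 17.3% of autosomal genes. The highest window, from H2bc14 to H2bc11, had a median of 0.40 and held 14 histone genes among its 15. These genes are near-identical copies, so a probe may read several of them and the 36 values are not separate measurements.

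The window with the lowest median outside chromosome 1 lay on chromosome 17 between B3galt4 and Tap2, within the major histocompatibility region, at -0.33. It is the extreme of 8404 overlapping windows and was singled out by its value. The day medians of that window were -0.16, -0.13 and -0.08, so no single day had a median as low as that of the mean differences.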
